A study of Mus musculus with 56 samples.

Results

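The 9 transcripts described here encode enzymes that make, phosphorylate or consume NAD. They comprise the salvage enzymes Nampt, Nmnat2, Nmnat3 and Naprt, the NAD kinase Nadk, the NAD-dependent deacylases Sirt1, Sirt2 and Sirt3, and the poly(ADP-ribose) polymerase Parp1. They were picked by name and make up 9 of the 17564 genes in the table, and all 9 passed the filter on low values. PolyA RNA was sequenced from the anterior hypothalamus of 56 female C57BL/6J mice aged 9 weeks, with no genetic change named in the labels. All mice had first lived for 7 days on 12 h of light and 12 h of dark with chow at any hour. For the next 7 days, 28 mice had food only in the light (daytime-restricted feeding, DRF) and 28 only in the dark (nighttime-restricted feeding, NRF, the reference). On each regimen, 4 mice were sampled at each of 7 zeitgeber times (ZT), every 4 h from ZT0 (lights on) to ZT24, so that ZT0 and ZT24 were different mice at the same clock hour. The question was how the hour of feeding changes the daily course of these transcripts.

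NAD carries electrons in metabolism and is also broken down as a substrate. Nampt converts the nicotinamide that NAD consumers release into nicotinamide mononucleotide, which the Nmnat enzymes join to an adenylyl group to give NAD, while Naprt starts the parallel route from nicotinic acid. Sirtuins remove acyl groups from proteins and Parp1 builds poly(ADP-ribose) chains at broken DNA, both at the expense of NAD. In liver, Nampt is a textbook target of the CLOCK and BMAL1 activators, and Sirt1 protein acts on the clock in return, so the pathway is often discussed as a link between feeding and the clock.

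Promoters are shown first: 3 members hold the E-box CACGTG near the start site (beside 7.15% of all promoters) and 2 hold AGGTCA (beside 16.3%). Each run holds 300 bases of GRCm38.p6 from the RefSeq promoter table, 250 before the start site and 50 from it on, read 5′ to 3′ on the strand of the gene. Capitals mark CACGTG, the canonical E-box bound by CLOCK and BMAL1, in Nadk, Parp1 and Sirt1. In Nampt and Nmnat3 they mark AGGTCA, a half-site that is only the core of the element bound by REV-ERB and ROR receptors. The full element was not searched for. Both strands were searched and no 2 matches overlapped.
Nadk: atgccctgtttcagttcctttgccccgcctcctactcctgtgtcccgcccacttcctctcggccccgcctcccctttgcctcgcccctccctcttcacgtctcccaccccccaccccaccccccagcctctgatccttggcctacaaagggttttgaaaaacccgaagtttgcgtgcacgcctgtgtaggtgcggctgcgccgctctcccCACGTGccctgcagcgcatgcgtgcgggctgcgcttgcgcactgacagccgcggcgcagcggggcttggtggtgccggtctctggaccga
Parp1: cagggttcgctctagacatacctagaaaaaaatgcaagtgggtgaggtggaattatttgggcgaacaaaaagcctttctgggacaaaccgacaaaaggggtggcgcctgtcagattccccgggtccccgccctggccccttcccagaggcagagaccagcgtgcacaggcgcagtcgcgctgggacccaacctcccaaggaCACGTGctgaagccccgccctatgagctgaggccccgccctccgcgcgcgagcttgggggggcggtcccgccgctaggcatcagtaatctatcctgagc
Sirt1: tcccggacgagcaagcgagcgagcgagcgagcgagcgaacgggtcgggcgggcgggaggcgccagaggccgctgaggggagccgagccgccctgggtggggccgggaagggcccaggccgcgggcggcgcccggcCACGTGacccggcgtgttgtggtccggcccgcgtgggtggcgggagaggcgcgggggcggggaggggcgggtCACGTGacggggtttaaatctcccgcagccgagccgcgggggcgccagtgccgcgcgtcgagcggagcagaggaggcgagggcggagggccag
Nampt: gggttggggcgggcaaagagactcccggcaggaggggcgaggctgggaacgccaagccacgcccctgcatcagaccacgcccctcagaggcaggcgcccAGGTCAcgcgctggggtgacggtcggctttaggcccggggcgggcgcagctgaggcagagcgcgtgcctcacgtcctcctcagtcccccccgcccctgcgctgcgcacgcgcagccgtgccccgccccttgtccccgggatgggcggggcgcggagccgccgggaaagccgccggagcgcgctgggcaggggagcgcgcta
Nmnat3: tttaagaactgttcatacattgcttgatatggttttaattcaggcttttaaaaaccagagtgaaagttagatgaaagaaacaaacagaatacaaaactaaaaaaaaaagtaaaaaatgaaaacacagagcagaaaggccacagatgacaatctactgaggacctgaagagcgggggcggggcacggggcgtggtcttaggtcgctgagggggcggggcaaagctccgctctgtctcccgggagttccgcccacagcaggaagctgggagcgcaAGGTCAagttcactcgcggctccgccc

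The Nadk window lies at chr4:155563565-155563864 on the + strand, with the E-box beginning 40 bases before the start site (-40, the start site being 0). The Parp1 window lies at chr1:180568641-180568940 on the + strand and its E-box begins at -49. The Sirt1 window lies at chr10:63338986-63339285 on the - strand and holds E-boxes at -115 and -43. The Nampt window (chr12:32820085-32820384, + strand) has AGGTCA at -151, and the Nmnat3 window (chr9:98296320-98296619, + strand) has it at 23, within the transcript. The table held a promoter for 8 members, with 2 each for Nadk and Sirt3; Naprt was not matched. Among all 32851 promoters of this length, 7.15% held CACGTG and 16.3% held AGGTCA. Of the 8 members, 3 held CACGTG and 2 held AGGTCA in at least 1 window, the count for AGGTCA being near the share of all promoters. The D-box TTATGTAA, present in 0.938% of promoters, and the cAMP response element TGACGTCA, present in 1.79%, were found in 0 members. A match describes letters in a window and is no evidence of binding.

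Values are read counts scaled to a common library size (CPM), recovered from the deposited table, which resolved into whole reads in 56 of 56 mice for each member. Normalized libraries held 29591282 to 34493363 reads, and the lowest correlation between mice of 1 group was 0.986. The labelled tissue held its 9 fixed markers in every mouse (summed level 354 to 855 CPM in DRF and 411 to 861 in NRF), and of the 4 pituitary markers Gh, Prl and Cga were at 0 in 38, 41 and 25 mice (highest 0.25, 0.587 and 13.8 CPM), while Pomc, which hypothalamic neurons also express, stood at 5.79 to 56.7 CPM. Replicates 3 and 4 of DRF at ZT16 stood apart: their expression rose with GC content by 0.311 and 0.448 (log2 per 10 percentage points of GC, over 15919 genes), against -0.127 to 0.14 in the other 54 libraries. Calls for the members that were lost or gained without these 2 libraries are given both ways. In whole tissue, fewer cells of a type and less RNA per cell cannot be told apart.

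Per kilobase of exon, taken over all annotated exons of a gene, the members differed widely in level. That length can exceed the length of the main transcript, so the order of members close in level depends on the annotation. Sirt2, an NAD-dependent deacetylase abundant in myelinating glia, stood first with a median of 36.0 CPM per kb (range 30.0 to 41.9). Nmnat2, the neuronal Golgi and axonal adenylyltransferase, followed at 34.6 (31.5 to 38.1), and these ranges overlapped, Sirt2 being above Nmnat2 in 37 of 56 mice. Nadk, which phosphorylates NAD to NADP in the cytosol, came next at 15.5 (14.1 to 18.3), ahead of Nampt at 12.9 (6.55 to 14.8).

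Parp1 had a median of 8.19 CPM per kb (7.18 to 10.1) and lay below Nampt in 54 of 56 mice. The mitochondrial deacetylase Sirt3 had 5.42 (4.58 to 6.57), above the mainly nuclear deacetylase Sirt1 with 3.97 (1.76 to 5.0) in 55 of 56 mice. Naprt had 1.64 (1.16 to 2.18) and the mitochondrial adenylyltransferase Nmnat3 0.362 (0.208 to 0.579), so that neuronal Nmnat2 was by far the more abundant of this pair. Nmnat2, Nadk, Parp1 and Naprt each exceeded the next member in 56 of 56 mice. Nmnat3 rested on 32 to 90 reads per mouse and Naprt on 82 to 161, against 1141 to 2260 for Nampt, so counting error weighed most on Nmnat3 and Naprt.

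The genes lie in GRCm38 at chr12:32820335-32853369 (Nampt, Gene ID 59027), chr1:152954781-153119266 (Nmnat2, 226518), chr9:98287433-98420533 (Nmnat3, 74080), chr15:75890963-75894481 (Naprt, 223646), chr4:155562381-155591001 (Nadk, 192185), chr10:63319005-63339035 (Sirt1, 93759), chr7:28766752-28788665 (Sirt2, 64383), chr7:140863663-140882309 (Sirt3, 64384) and chr1:180568891-180600999 (Parp1, 11545). Values are sums over all exons of a gene. Sirt3 shares 342 and 418 of its 5973 exonic bases with Psmd13 and Ric8a on the other strand, and Naprt shares 277 of 2344 with Eef1d on its own strand. Strand use in counting was not given in the sources used here, so part of those reads may belong to the neighbour.

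**Figure D1:**
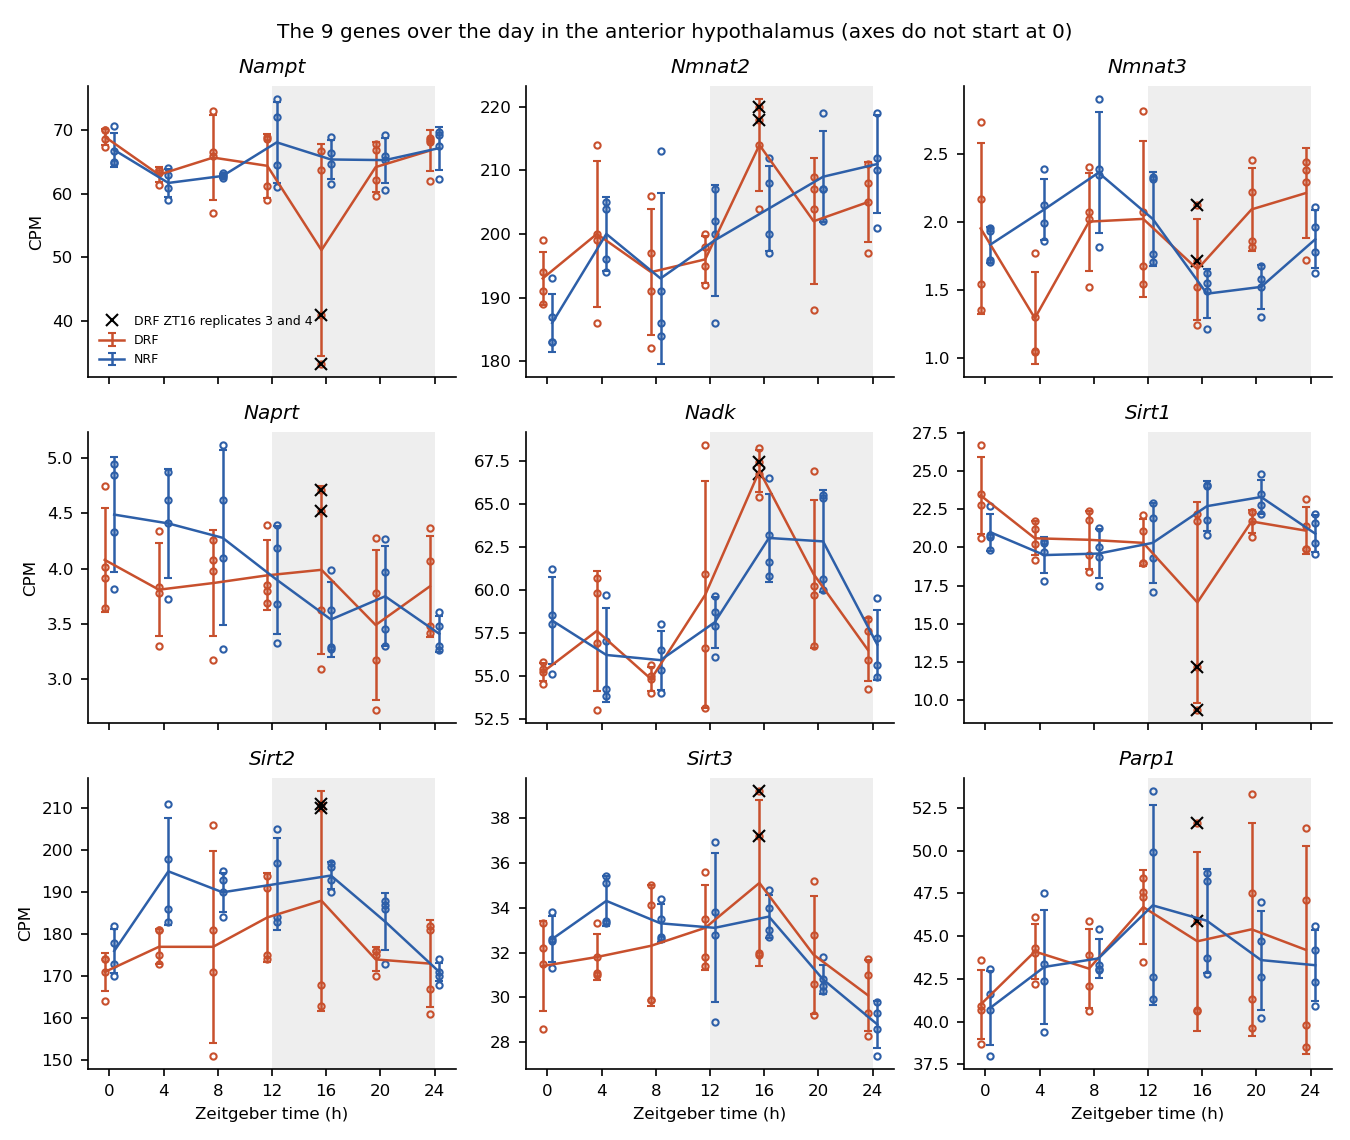
Level of each of the 9 transcripts (CPM, linear axis) against zeitgeber time (h). Points are single mice, lines join the means of 4 mice, bars are SD, crosses mark replicates 3 and 4 of DRF at ZT16, and the dark phase is shaded. In NRF, Nmnat3 is high at ZT8 (mean 2.36 CPM) and low at ZT16 (1.47), Nadk is high at ZT16 (63 CPM), and 2 DRF mice at ZT16 lie far below all others in Nampt (40.8 and 33.1) and Sirt1 (12.2 and 9.36).

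Daily rhythm was tested by JTK_CYCLE and the Lomb-Scargle periodogram, combined and adjusted by the Benjamini-Hochberg method over 16245 transcripts. In NRF, Nadk, Nmnat3, Sirt1 and Sirt2 were rhythmic, that is 4 of 9 members, beside 27.8% of all transcripts tested. In DRF 0 of 9 were called, beside 0.813% of all transcripts. At an unadjusted p under 0.05, 1 member (Nadk) passed in DRF, beside 708 of 16245 transcripts. A cosine fitted by limma called the same gene (adjusted p = 0.0458), beside 1.17% of genes. Both were lost without the 2 outlying libraries (unadjusted p = 0.101, and adjusted p = 0.173 for the limma cosine). Cell type markers were rhythmic in NRF as well, with 4 of 4 endothelial, 3 of 5 oligodendrocyte, 1 of 5 neuronal and 1 of 5 astrocyte genes called, and their part in the rhythm of the members was not tested. A call in one regimen alone is no test of a difference. That test, the F test of the interaction of regimen with a 24-h cosine in limma, called 1 of 9 members, Nmnat3, beside 11.3% of 16086 genes.

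The mean over the day differed between DRF and NRF in 0 of 9 members in limma, beside 10.5% of all genes. At an unadjusted p under 0.05 there was 1 member (Sirt2), beside 4207 of 16086 genes. Dark (ZT16 and ZT20) and light (ZT4 and ZT8), averaged over the regimens, differed in 2 of 9 members, Nadk and Nmnat2, beside 18.0%. Food available (DRF in the light, NRF in the dark) and food absent (the reverse) differed in 2 of 9, Nmnat3 and Sirt1, beside 10.4%. This last contrast is the interaction of regimen with light and dark, so each phase of the light cycle enters it equally. Without the 2 outlying ZT16 libraries the counts were 1 of 9 for the mean (Sirt2, beside 10.2% of genes), 4 of 9 for dark and light (Nadk, Nmnat2, Sirt1 and Naprt, beside 30.6% of genes) and 0 of 9 for food (beside 3.67%). For food without those libraries, 1 member (Nmnat3) had an unadjusted p under 0.05 in limma, beside 2941 of 16086 genes.

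Comparing DRF with NRF at single time points gave calls in 3 of 63 pairs of member and time point, beside 4.54% of 112602 pairs over all genes. The calls were Nmnat3 at ZT4 (1 of 9 members, beside 3.95% of genes) and Nampt and Sirt1 at ZT16 (2 of 9, beside 20%). Without the 2 ZT16 libraries that stood apart, 0 of 9 members were called at ZT16, beside 0.186% of genes. In that fit 1 member (Sirt2) had an unadjusted p under 0.05 in limma, beside 1848 of 16086 genes. At the other time points limma called 0 of 9 members, beside 4.64% of genes at ZT0, 0.149% at ZT8, 1.57% at ZT12, 1.19% at ZT20 and 0.298% at ZT24. Among those pairs, 1 had an unadjusted p under 0.05 (Nmnat3 at ZT20, beside 2207 of 16086 genes at that hour).

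Nampt, the rate-limiting enzyme of salvage, showed no called rhythm. In NRF the group means ran from 61.7 CPM at ZT4 to 68.1 at ZT12 (SD 2.22 and 6.42, n = 4 each), with an adjusted p for rhythm of 0.802. The 24-h cosine had an amplitude of 0.038 ± 0.023 (log2, SE) in NRF, where the REV-ERB gene Nr1d1 had 0.48 ± 0.035 with a peak at ZT 8.72 and the clock output gene Dbp 0.73 ± 0.035 at ZT 10.5. The level of Nampt in NRF mice was 65.3 ± 3.82 CPM (SD, n = 28) over the day.

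At ZT16 the 4 DRF mice had 66.8, 63.7, 40.8 and 33.1 CPM of Nampt and the 4 NRF mice 61.5, 68.9, 64.7 and 66.4. DRF replicates 1 and 2 lay within the NRF range, and replicates 3 and 4, with 1335 and 1141 reads, lay below every other mouse of the study. The fitted difference was -0.41 ± 0.11 (log2, SE; adjusted p = 0.00731, limma). Without replicates 3 and 4 it was -0.0022 ± 0.070 (adjusted p = 0.999). The GC content of Nampt is 40.3%. With the GC and length trend of each library removed, the difference was -0.15 ± 0.048 (adjusted p = 0.035), and the part of that trend in the result was not tested further. At this hour 2 of 3 thalamic markers and 2 of 5 neuronal markers were also lower in DRF (thalamic sums 81.6 to 115 CPM against 160 to 298). This stood beside 20% of all genes called in either direction (2135 of 16086 lower). Other lists held calls too: P2ry12 of microglia and Slco1a4 of endothelium were lower and Lhx1 of the hypothalamus higher. Astrocytes and neocortex each had 1 higher and 1 lower. Without the 2 outlying libraries 0 of 3 thalamic and 0 of 5 neuronal markers were called (median difference -1.21 and -0.11, log2, against -1.16 and -0.022 with them). The part of the markers in the result was not tested.

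**Figure D2:**
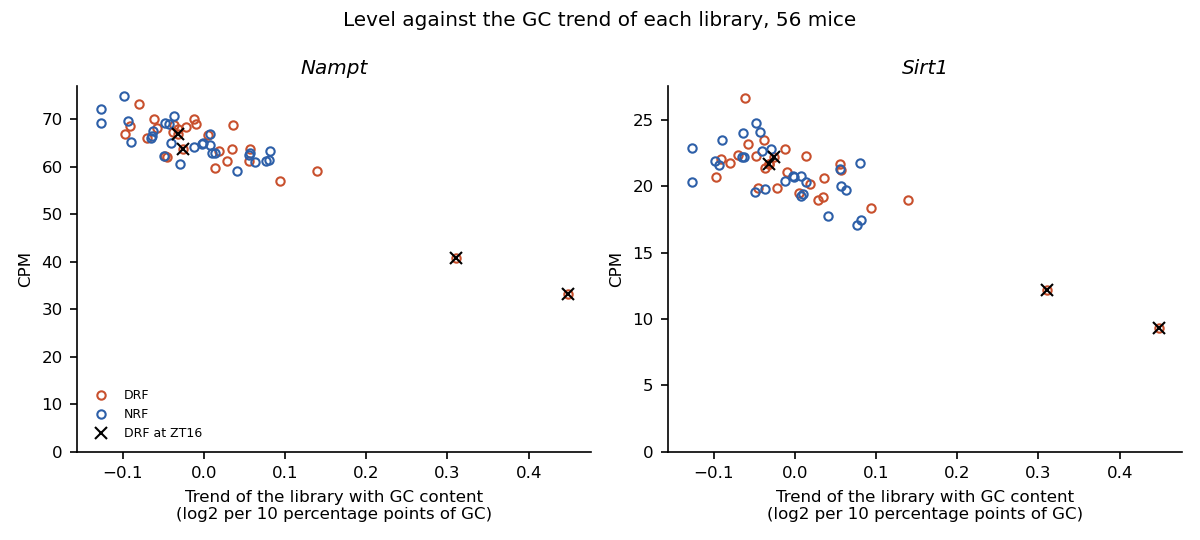
Level of Nampt and of Sirt1 (CPM, linear axis from 0) in each of the 56 libraries against the slope of expression on GC content in that library (log2 per 10 percentage points), with the 4 DRF mice of ZT16 crossed. Replicates 3 and 4 of DRF at ZT16 lie alone at the right, at slopes of 0.311 and 0.448, and hold the lowest levels of both transcripts.

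Nmnat2, which makes NAD in neurons and is needed for axon survival, was higher in the dark. At ZT16 and ZT20 the NRF mice had 200, 197, 208 and 212 CPM and 219, 207, 207 and 202 CPM, against 194, 196, 205 and 204 at ZT4 and 213, 184, 186 and 191 at ZT8. The DRF mice had 214, 204, 218 and 220 at ZT16 and 204, 188, 209 and 207 at ZT20, against 186, 199, 214 and 200 at ZT4 and 182, 197, 206 and 191 at ZT8. The dark and light mice overlapped in both regimens, and the difference was small, 0.076 ± 0.021 (log2, SE; a 1.05-fold rise; adjusted p = 0.00859). The call was lost without ZT16 (adjusted p = 0.0664) and in 2 of 4 fits that left out a replicate number (1 or 4, adjusted p up to 0.0697).

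The highest NRF mean of Nmnat2 was at ZT24 (mice at 212, 210, 201 and 219 CPM), yet the ZT0 mice, taken at the same clock hour, had 193, 187, 183 and 183. These groups did not overlap. In NRF, 3 of 9 members had non-overlapping ZT0 and ZT24 mice (Nmnat2 higher at ZT24, Naprt and Sirt3 higher at ZT0), beside 21.7% of all genes. In DRF the count was 0 of 9, beside 9.54%. The rhythm of Nmnat2 in NRF had an adjusted p of 0.0702.

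Nmnat3, the mitochondrial adenylyltransferase, varied most among the members, with group means from 1.29 CPM in DRF at ZT4 to 2.36 in NRF at ZT8, a ratio of 1.83. In NRF it was high in the light: 1.99, 2.39, 1.86 and 2.12 CPM at ZT4 and 2.39, 2.9, 1.81 and 2.34 at ZT8. In the dark, the NRF mice had 1.49, 1.55, 1.62 and 1.21 at ZT16 and 1.67, 1.58, 1.3 and 1.52 at ZT20. Every dark NRF mouse of these hours lay below every light one, and the share of all genes so separated is not given. The rhythm in NRF had an adjusted p of 0.000209, an amplitude of 0.22 ± 0.035 (log2, SE) and a peak at ZT 6.61 ± 0.555 h.

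In DRF the course of Nmnat3 differed. At ZT4 these mice had 1.05, 1.3, 1.04 and 1.77 CPM, all below the NRF mice of that hour. At ZT20 they had 2.22, 1.86, 2.45 and 1.81, all above the NRF mice. The cosine amplitude in DRF was 0.073 ± 0.072, and the rhythms differed between regimens (F = 6.68, adjusted p = 0.0321, limma). Without the 2 outlying ZT16 libraries the adjusted p was 0.0385, and without ZT0 or without ZT24 the call was lost, as it was on leaving out replicate 1 or 3 of DRF at ZT4, replicate 3 of DRF at ZT20 or replicate 2 of NRF at ZT8 (F then 5.56 to 8.55 over the 56 libraries left out in turn, highest adjusted p 0.0586). Leaving out a replicate number kept the call in 1 of 4 fits and lost it without number 2, 3 or 4 (F down to 4.21, adjusted p up to 0.194).

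The difference of Nmnat3 at ZT4 was -0.44 ± 0.12 (log2(CPM + 1), SE; adjusted p = 0.0301, limma), a scale that understates the change of so low a transcript, whose means were 1.29 ± 0.339 CPM in DRF and 2.09 ± 0.227 in NRF (SD, n = 4). That call held in 52 of 56 fits that left out a single library and was lost without replicate 1 or 3 of DRF or 2 or 4 of NRF at ZT4 (adjusted p up to 0.137). It was lost in 4 of 4 fits that left out a replicate number (adjusted p 0.0686 to 0.176). At ZT20 the difference was 0.29 ± 0.12 (adjusted p = 0.256). The contrast of food available with food absent was -0.25 ± 0.061 (adjusted p = 0.00783), a 0.843-fold ratio of CPM + 1. Its call was lost in 2 of 4 fits without a replicate number (3 or 4, adjusted p up to 0.101). In NRF the means were 1.47 (ZT16) and 1.52 CPM (ZT20) with food, against 2.09 (ZT4) and 2.36 (ZT8) without. In DRF they were 1.29 (ZT4) and 2 (ZT8) with food, against 1.65 (ZT16) and 2.09 (ZT20) without. The DRF mean at ZT8 thus lay above that at ZT16, so a lower level with food was not uniform in DRF. Without the 2 outlying libraries the contrast was -0.21 ± 0.063 (adjusted p = 0.0508), and -0.21 ± 0.061 (adjusted p = 0.0312) when GC and length trends were also removed.

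At ZT4, blood-cell transcripts moved with the regimen as well. Erythrocyte markers summed to 488 to 2380 CPM in DRF and 234 to 301 in NRF at that hour, and 5 of 5 were higher in DRF (median 1.68, log2). Their part in the Nmnat3 result was not tested.

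Naprt, which opens the nicotinic acid route, had means of 3.86 ± 0.503 CPM in DRF and 3.97 ± 0.596 in NRF (SD, n = 28). In NRF the ZT0 mice had 3.82, 4.33, 4.85 and 4.95 CPM and the ZT24 mice 3.3, 3.48, 3.61 and 3.26. Mice of the same clock hour did not overlap, and the rhythm in NRF had an adjusted p of 0.322. The difference of dark from light was -0.12 ± 0.053 (log2, SE; adjusted p = 0.112), and -0.17 ± 0.053 (adjusted p = 0.0159) without the 2 outlying libraries.

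Nadk, the cytosolic NAD kinase, was higher in the dark under both regimens. In NRF it stood at 59.7, 54.2, 57 and 53.8 CPM at ZT4 and 56.5, 55.3, 54 and 58 at ZT8, against 66.5, 63.2, 60.8 and 61.6 at ZT16 and 65.3, 65.5, 60.6 and 60.0 at ZT20. In DRF it stood at 53.0, 56.9, 59.8 and 60.7 at ZT4 and 55, 54.8, 54 and 55.6 at ZT8, against 68.2, 65.4, 67.4 and 66.7 at ZT16 and 60.2, 66.9, 59.7 and 56.7 at ZT20. In NRF all dark mice of these hours lay above all light ones, and in DRF all ZT16 mice did, whereas the ZT20 mice overlapped those of ZT4. For this separation too, no share of all genes is given.

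Nadk rose by 0.17 ± 0.025 in the dark (log2, SE; 1.13-fold; adjusted p = 1.66e-06, limma), with the same 0.17 and an adjusted p of 4.94e-06 without the 2 outlying libraries. This call held in 56 of 56 fits that left out a library and in 4 of 4 that left out a replicate number. The rhythm in NRF had an adjusted p of 6.36e-05 and peaked at ZT 17.6 ± 0.572 h with an amplitude of 0.096 ± 0.016. In DRF the adjusted p was 0.262 (1.0 without the 2 outlying libraries), the amplitude 0.12 ± 0.025 and the peak ZT 16.3 ± 0.766 h. The test of a difference in rhythm between the regimens gave no call (adjusted p = 0.53), and the mean differed by 6.94e-05 with a 95% half-width of 0.037. Both fitted peaks fell in the dark, when NRF mice had food and DRF mice had none. What sets their timing was not tested.

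**Figure D3:**
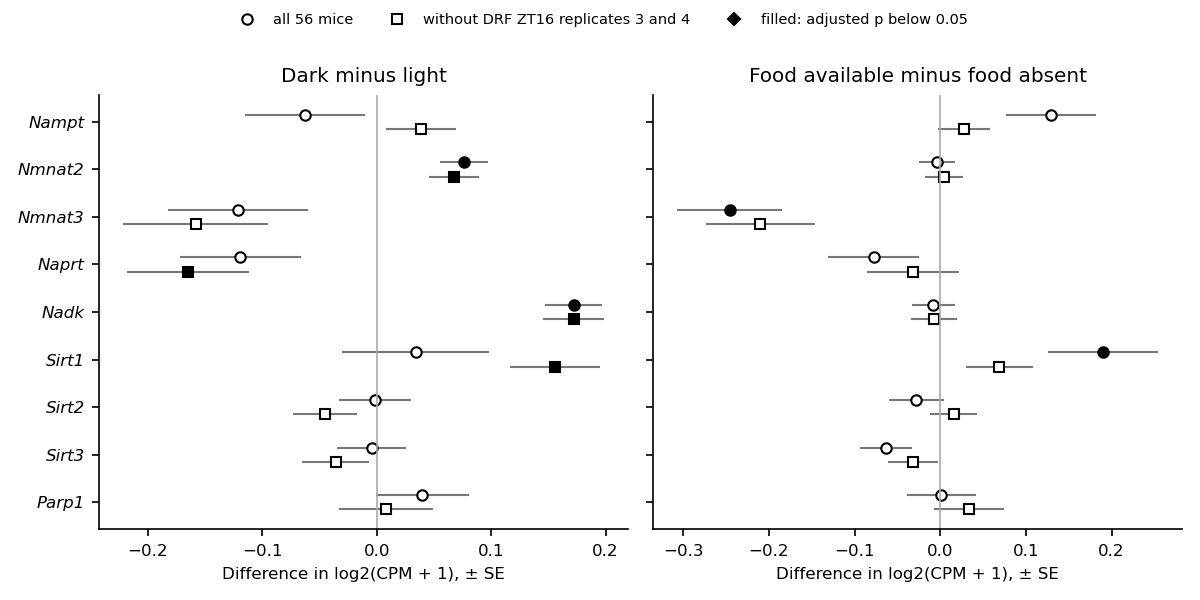
Difference of dark from light (left) and of food available from food absent (right) for each of the 9 transcripts, in log2(CPM + 1) with SE, from limma on all 56 mice (circles) and without the 2 outlying ZT16 libraries (squares). Filled symbols have an adjusted p below 0.05. Nadk (0.17) and Nmnat2 (0.076) are filled on the left with all mice, joined by Sirt1 and Naprt without those libraries, and Nmnat3 (-0.25) and Sirt1 (0.19) are filled on the right with all mice only.

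Sirt1, a deacetylase of histones and transcription factors, was rhythmic in NRF with a peak in the dark. The NRF mice had 17.8, 19.7, 20.3 and 20.4 CPM at ZT4 and 19.4, 17.5, 20 and 21.3 at ZT8, against 21.8, 24.1, 20.8 and 24 at ZT16 and 22.8, 23.5, 24.8 and 22.2 at ZT20. The light and dark mice overlapped only between ZT8 and ZT16. The adjusted p was 0.00442, the amplitude 0.13 ± 0.029 (log2, SE) and the peak ZT 18.5 ± 0.75 h. The call was lost without replicate 2 or 3 of every group (adjusted p up to 0.158) and with GC and length trends removed (adjusted p = 0.0918).

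At ZT16 the DRF mice had 21.7, 22.2, 12.2 and 9.36 CPM of Sirt1, from 668, 673, 400 and 323 reads. As for Nampt, replicates 1 and 2 lay inside the NRF range and the 2 outlying libraries below every other mouse. The difference from NRF was -0.53 ± 0.13 (log2, SE; adjusted p = 0.00528), and -0.041 ± 0.090 (adjusted p = 0.91) without those libraries. With GC and length trends removed it was -0.38 ± 0.094 (adjusted p = 0.00768). The contrast of food was 0.19 ± 0.064 with all mice (adjusted p = 0.0476), 0.069 ± 0.039 (adjusted p = 0.353) without the 2 libraries, and it was called in 19 of 56 fits that left out a single library. Sirt1 in the dark against the light was 0.034 ± 0.064 (adjusted p = 0.762) with all mice and 0.16 ± 0.039 (adjusted p = 0.00229) without those libraries.

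Among clock genes of the same NRF mice, Clock peaked at ZT 20.2 ± 0.71 h and Arntl, the gene of BMAL1, at ZT 23.6 ± 0.31 h, with amplitudes of 0.18 ± 0.035 and 0.23 ± 0.017 (log2, SE). Per2 peaked at ZT 14.9 ± 0.324 h in NRF and at ZT 14.4 ± 0.638 h in DRF, and both rhythms were called (adjusted p = 7.38e-07 and 0.0379), that in DRF not without the 2 outlying libraries (adjusted p = 0.334), where a limma cosine called it both ways (adjusted p = 0.00127 and 0.00624). Per1 peaked at ZT 12.4 and Nr1d2 at ZT 14.6 in NRF. Npas2 was not called in either regimen (adjusted p = 1.0). The amplitude of Sirt1 in NRF lay below those of Clock, Arntl, Per1, Per2, Nr1d1, Nr1d2 and Dbp.

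Sirt2, a mainly cytosolic deacetylase of the myelin sheath, had NRF values of 182, 178, 173 and 170 CPM at ZT0, 186, 183, 198 and 211 at ZT4, 205, 197, 183 and 184 at ZT12 and 196, 193, 197 and 190 at ZT16. By ZT24 the mice had 168, 170, 171 and 174. All mice of ZT4, ZT8 (184 to 195 CPM), ZT12 and ZT16 lay above all ZT0 and ZT24 mice, whereas those of ZT20 (173 to 188) overlapped them. These groups were compared after seeing the values, and the share of all genes so separated is not given. The rhythm was called with an adjusted p of 0.0319, an amplitude of 0.072 ± 0.018 (log2, SE) and a peak at ZT 11.1 ± 1.04 h, and it was called in 11 of 28 fits that left out a single NRF library. It was lost without ZT0, ZT16 or ZT24 (adjusted p = 1.0, 0.346 and 0.567) and in 3 of 4 fits that left out a replicate number (adjusted p up to 0.94).

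At ZT4 the DRF mice had 175, 181, 173 and 181 CPM of Sirt2, all below the NRF mice. Over the day the means were 178 ± 14 CPM in DRF and 186 ± 11 in NRF (SD, n = 28), a difference of -0.067 ± 0.024 (log2, SE; adjusted p = 0.0651, limma). Without the 2 outlying libraries, which held 210 and 211 CPM against 168 and 163 in the other 2 DRF mice at ZT16, the difference was -0.091 ± 0.021 (adjusted p = 0.00399). It was also called with GC and length trends removed (-0.088 ± 0.019, adjusted p = 0.00322). At ZT16 without those libraries it was -0.23 ± 0.064 (adjusted p = 0.137). Sirt2 has a GC content of 54.2%.

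Oligodendrocyte transcripts moved with Sirt2. Across the 56 mice its level rose with the mean of the 5 markers Mbp, Mog, Mobp, Mag and Cnp (Pearson r = 0.684, permutation p = 1e-05, the smallest that 100000 resamples can give; Spearman rho = 0.726, permutation p = 1e-05). Of 3 such relations, adjusted together, r was 0.606 in DRF (p = 0.00079, adjusted 0.00079; rho = 0.695, permutation p = 0.0001, n = 28) and 0.719 in NRF (p = 2e-05, adjusted 3e-05; rho = 0.754, permutation p = 1e-05, n = 28). Without the 2 mice farthest on the marker axis r was 0.672 over all mice, 0.731 in DRF and 0.786 in NRF. After centring on the means of the 14 groups r was 0.637 over all mice, 0.665 in DRF and 0.544 in NRF. No p was computed for these centred values, so the relation within groups carries no p. The 56 mice hold both sets of 28, so the 3 relations adjusted together are not independent.

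In NRF, 3 of the 5 markers were called rhythmic (Mag with a peak at ZT 9.83, Cnp at 8.14 and Mog at 10.1). The cosines of Mbp and Mobp, not called rhythmic, peaked at ZT 13.1 and 14.2. That of Sirt2 peaked between these, at ZT 11.1. Averaged over the day, 2 of 5 (Cnp and Mog) were lower in DRF, with a median difference of -0.12 (log2) over the list, and 3 of 5 (with Mag) with a median of -0.15 without the 2 outlying libraries. Their summed level was 3050 to 6090 CPM in DRF and 3840 to 6410 in NRF. Their part in the results for Sirt2 was not tested.

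**Figure D4:**
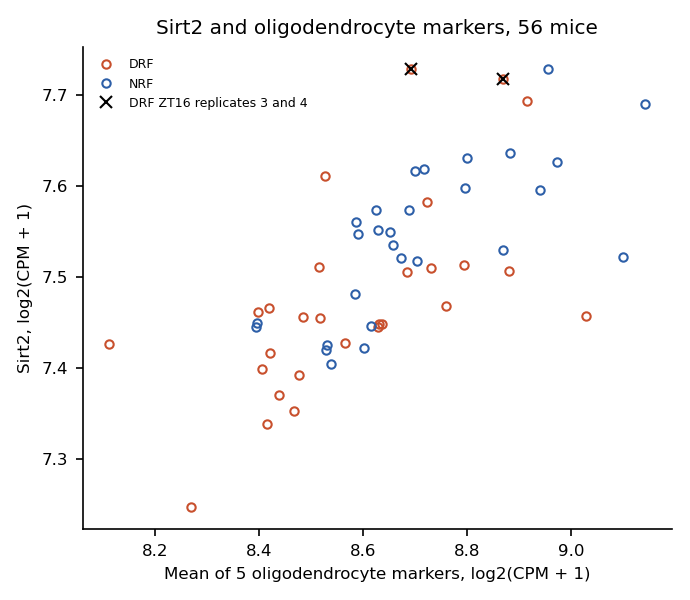
Level of Sirt2 (log2(CPM + 1)) against the mean of 5 oligodendrocyte markers (log2(CPM + 1)), 1 point per mouse, 28 DRF and 28 NRF, with replicates 3 and 4 of DRF at ZT16 crossed. The points rise together in both regimens, with r = 0.606 in DRF and 0.719 in NRF.

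Sirt3, the main deacetylase of mitochondria, had 32.2 ± 2.54 CPM in DRF and 32.4 ± 2.26 in NRF (SD, n = 28). At ZT4 the DRF mice had 31.0, 31.8, 31.1 and 33.3 CPM and the NRF mice 35.4, 35.1, 33.4 and 33.3. The ranges met without overlap, NRF being above, and the difference was -0.11 ± 0.061 (log2, SE; adjusted p = 0.369). In NRF the ZT0 mice (32.5, 33.8, 32.6 and 31.3) lay above the ZT24 mice (28.6, 29.8, 29.3 and 27.4). The rhythm in NRF had an adjusted p of 0.0746. It was called with median-of-ratios scaling (0.04), with GC and length trends removed (0.0116) and in 3 of 28 fits that left out a single NRF library, and in 0 of 4 that left out a replicate number.

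Over all members, DRF and NRF mice of the same time point did not overlap in 4 of 63 pairs, beside 9.78% of pairs over all genes. These were Nmnat3, Sirt2 and Sirt3 at ZT4, with NRF above, and Nmnat3 at ZT20, with DRF above.

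Parp1, the main poly(ADP-ribose) polymerase, gave no call. Group means ran from 40.8 ± 2.14 CPM in NRF at ZT0 to 46.8 ± 5.85 in NRF at ZT12 (SD, n = 4), where single mice had 53.5, 42.6, 49.9 and 41.3. The rhythm in NRF had an adjusted p of 0.98. The mean differed between regimens by 0.0074 (log2) with a 95% half-width of 0.060, dark from light by 0.040 with a half-width of 0.080, and food from no food by 0.0013 with a half-width of 0.080.

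The other genes of NAD metabolism, in lists covering 45 genes of which 43 were tested, are given by their counts. In NRF 9 of 43 (20.9%, beside 27.8% of all transcripts) were rhythmic: the mitochondrial NAD carrier Slc25a51, the kynurenine-route genes Ido2 and Afmid, and the NAD users and poly(ADP-ribose) enzymes Sirt4, Sirt5, Parp2, Parp3, Tnks2 and Parg. In DRF 1 of 43 was (Kyat3; 2.33%, beside 0.813%). The rhythm differed in 4 (9.30%, beside 11.3%), the mean in 5 (11.6%, beside 10.5%; 4 higher and 1 lower in DRF), dark from light in 9 (20.9%, beside 18.0%; 5 higher and 4 lower in the dark), and food available from absent in 4 (9.30%, beside 10.4%; 1 higher and 3 lower). Without the 2 outlying libraries 2 were rhythmic in DRF (beside 0.714%), the rhythm differed in 6 (beside 10.8%), the mean in 4 (beside 10.2%), dark from light in 12 (beside 30.6%) and food in 2, both lower (beside 3.67%). At single time points DRF differed from NRF in 4 genes at ZT0 (3 higher, and 6 without the outlying libraries, beside 4.64% and 7.35% of all genes). The count was 1 at ZT4 (higher, beside 3.95%) and 1 at ZT24 (lower, beside 0.298%). At ZT16 it was 3 (6.98%, beside 20%, with 2 higher), and 0 in all without the outlying libraries (beside 0.186%). The rhythmic genes included none of the 9 others of the list for NAD synthesis from nicotinamide, nicotinic acid or the riboside, which holds transporters too. Of these Pnp was lower in DRF over the day, and the transporter gene Slc22a13 was higher with all mice but was not called without the 2 outlying libraries.

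Sirt5, a mitochondrial sirtuin that removes succinyl and malonyl groups, peaked at ZT 6.16 ± 0.51 h in NRF with an amplitude of 0.16 ± 0.025 (log2, SE; adjusted p = 0.000921), had an amplitude of 0.015 ± 0.024 in DRF, and its rhythm differed between regimens (adjusted p = 0.00242). Its contrast of food available with food absent, the interaction of regimen with light and dark, was -0.15 (log2, adjusted p = 0.00153, limma). Without the 2 outlying libraries the contrast was -0.13 (adjusted p = 0.0109). Its lowest and highest group means were both in NRF (9.07 CPM at ZT20 and 11.5 at ZT8). With so small an amplitude in DRF, the contrast does not show a fall with food in DRF mice. Sirt4, another mitochondrial sirtuin, had its peak at ZT 19.7 ± 0.744 h in NRF and a rise of 0.12 ± 0.026 in the dark (adjusted p = 0.000493).

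Slc25a51, which carries NAD into mitochondria, peaked at ZT 19.3 ± 0.763 h in NRF (adjusted p = 0.000112) and rose by 0.070 ± 0.019 in the dark (log2, SE; adjusted p = 0.00784). Parg, which trims poly(ADP-ribose), peaked at ZT 20.6 ± 0.831 h (adjusted p = 0.000263). The tankyrase Tnks2 peaked at ZT 19.0 ± 0.609 h (adjusted p = 0.000144), and its difference of -0.32 ± 0.088 at ZT16 (adjusted p = 0.0106) was not called without the 2 outlying libraries. Kyat3, an aminotransferase of kynurenine, was rhythmic in DRF (peak ZT 19.5 ± 0.579 h, adjusted p = 0.00338), and its rhythm differed between regimens (adjusted p = 0.037).

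Ido2, a dioxygenase that opens the tryptophan ring, was 0.39 ± 0.085 higher in DRF at ZT0 (log2, SE; adjusted p = 0.00367). In the other mice of the same clock hour, at ZT24, the difference was 0.11 ± 0.085 and was not called (adjusted p = 0.83). Its median level was 3.7 CPM. Kyat1, another kynurenine aminotransferase, fell by 0.18 on the log2 scale with food available (adjusted p = 0.00386), and its rhythm differed between regimens (adjusted p = 0.00838).

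The genes whose 14 group means were most like those of Nampt were Slc25a36, D3Ertd751e, Strn3, Zfp958 and Slc30a4, with Pearson r across groups of 0.973 to 0.983, and Sirt1 ranked 601 of 16085 (r = 0.864). Without the 2 outlying libraries the 5 were Zfp160, Gm6712, Zfp974, Slc25a36 and Zfp948 (0.869 to 0.918), and Sirt1 had r = 0.471 at rank 1295. For Sirt1 the most alike were Bmt2, Desi2, Msl2, Taf1d and Heca (0.93 to 0.953), replaced by Eya1, Car13, Zbtb14, Six4 and Glis3 (0.823 to 0.862) without those libraries. For Parp1 they were Ppp1r16b, Dusp7, R3hdm2, Mcu and Dagla (0.827 to 0.861), of which Dusp7, Dagla and R3hdm2 were again among the 5 without those libraries. These correlations describe 14 means that share the same libraries, including the 2 outlying ones for the first values.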

How the data were processed

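RNA-seq of the anterior hypothalamus of 56 mice was read from 1 deposited table. Per the submitters' processing notes and methods, the authors aligned reads to mm10 (GRCm38.p6) with HISAT2 and Bowtie2, counted with RSEM, scaled by TMM and converted to TPM. The deposited values, treated here as a score because they are compressed, sum to 999333 to 999720 per mouse. They follow log2(CPM + 1) divided by the length of the gene over all its exons (median relative deviation 2.1e-08). This was undone to CPM and reads (whole within 0.05 in at least 90% of mice for 14041 genes with the annotated length). Rhythm was tested on the deposited values by JTK_CYCLE and Lomb-Scargle (20 to 28 h), written anew in Python 3.11.15 (numpy 2.4.6, scipy 1.17.1) and combined by Fisher's method. Other tests used limma 3.58.1 (R 4.3.3) on log2(CPM + 1), with a pseudocount of 1, over 14 groups of 4 mice. Genes needed a value of at least 1 in 80% of mice (16245 genes, 16086 with CPM). All p-values were Benjamini-Hochberg adjusted over all genes tested and called below 0.05. A fold change on this scale understates that of low transcripts. Scripts were tested on simulated data. Named genes were the 9 members, the 5 genes most like Nampt, Sirt1 and Parp1, and other pathway genes. Of the last, at most 8 with the smallest adjusted p were described with values. Afmid, Parp2, Parp3, Pnp and Slc22a13 were named beyond these, only as called. The members and lists were chosen with earlier results of these data known, and 1 oligodendrocyte marker of the list is not reported here and enters no count or mean. Replicates are separate mice by the study's description. Nmnat3 had 32 to 90 reads per mouse in normalized libraries of 29591282 to 34493363 reads. Alternatives covered scaling, pseudocount, filter, GC and length trends, replicate block and left-out libraries or times, some chosen after seeing the data.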

Additional observations from a re-analysis of the deposited data

Results flagged for a closer look

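Of 126 groups of 4 mice, looked at for each member, 3 held a mouse far from the rest, where chance gives about 1 in 20. These were replicate 4 of DRF at ZT24, the lowest in Nampt at 62.0 CPM, replicate 4 of NRF at ZT20, the lowest in Sirt2 at 173 CPM, and replicate 1 of NRF at ZT8, the highest in Parp1 at 45.4 CPM. Replicates 3 and 4 of DRF at ZT16, the lowest in Nampt and Sirt1, were not singled out in this way because they lie apart from the others as a pair.

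Effects that differed between the regimens were the rhythm of Nmnat3 (adjusted p = 0.0321, limma), and the contrast of light and dark between regimens, which is that of food available and absent, in Nmnat3 (adjusted p = 0.00783) and in Sirt1 (adjusted p = 0.0476). The Sirt1 value rests on the 2 outlying ZT16 libraries.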

How the results depend on the processing

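No member's value changed its direction while called, under any alternative run. Over 7569 values of members under alternatives, 7431 kept their side of the threshold, 106 lost a call and 32 gained one. For members rhythmic in DRF, a limma cosine gave 1 in place of 0 (Nadk). In NRF, removing GC and length trends left 4 rhythmic members with Sirt3 in place of Sirt1. A rhythm that differed between regimens was called in 2 members with GC and length trends removed (Nmnat3 and Sirt1) and in 0 without ZT0 or without ZT24. A mean difference was called in 1 member (Sirt2) in place of 0 with those trends removed, without ZT16, and without the 2 outlying ZT16 libraries, with or without the trends. Without these libraries, dark and light differed in 4 members in place of 2. Food available and absent differed in 1 member in place of 2 without the filter, without ZT16 and with trends removed together with those libraries, and in 0 without those libraries alone. DRF and NRF differed in 1 pair in place of 3 (Nmnat3 at ZT4) without ZT16 or without those libraries. The causes were not tested.

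With the replicate block the contrast of food gave 1 member (Sirt1 had an adjusted p of 0.0541), and the block moved no other count by over 1.5 times. Mice of the same replicate number did not deviate together (median correlation 0.0133, from -0.537 to 0.555, over 364 pairs, against -0.00748 for other numbers), so the numbers do not pair the mice.

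Leaving out 1 library in turn gave 3 to 6 rhythmic members in NRF, 0 in DRF, 0 to 2 with a rhythm that differed, 0 to 1 with a mean that differed, 2 to 3 for dark and light, 1 to 3 for food and 1 to 3 pairs. Leaving out a replicate number gave 2 to 4, 0, 0 to 1, 0, 1 to 2, 0 to 3 and 0 to 2. Depth limits Nmnat3 and Naprt most, and 4 mice per group limit every comparison at a single time point.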
